A study of Mus musculus with 14 samples.

Results

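Crush of the sciatic nerve was followed in the dorsal root ganglia (DRG) of C57BL/6 mice by sequencing of their microRNAs (miRNAs). The libraries were taken by their titles, 3 from injured and 5 from naive animals, which makes 8 of the 14 libraries of the series. The other 6 come from CAST/Ei mice, 3 naive and 3 injured, and enter below only where the injury effects of the 2 strains are set against each other. Injured mice were males aged 8 to 10 weeks whose left sciatic nerve had been crushed for 30 s, per the labels' protocols. For the naive mice the labels give the strain, the tissue and no treatment, so matching by sex or age could not be checked. No transgene or drug is named for any group. The time from crush to dissection is not given in the sources used here. Which ganglia were taken, and whether animals were pooled, is not given either. The ganglia were dissociated before RNA was extracted, and per the series' design text each group's libraries are biological replicates.

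DRG hold the cell bodies of sensory neurons with their satellite glia, beside Schwann cells, vessels, connective tissue and resident macrophages. A crush cuts axons but leaves the sheaths of the nerve in place, and the injured neurons then switch from signalling to regrowth. miRNAs are short RNAs that guide Argonaute proteins to messenger RNAs, mostly through their seed, bases 2 to 8 from the 5′ end, and they lower the stability and translation of the messages they pair with.

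Values are read counts scaled to library size (counts per 1000000, CPM), and the libraries held 4007706 to 11608088 reads. Of 1123 miRNAs listed, the 607 with at least 5 CPM in at least 3 of the 8 libraries were tested on log2(CPM + 1) with limma, two-sided, with p-values adjusted by Benjamini and Hochberg over all 607 and a threshold of 0.05. A log2 change is injured minus naive on that scale, and for scarce miRNAs the added 1 makes it too small. Of the 607, 32 passed the filter only through the injured libraries. The filter favours increases among these but does not require them. miR-155-3p, for example, passed in this way and was lower with all 8 libraries (log2 change −1.31).

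The libraries carried the miRNAs of ganglion tissue. The miR-183 cluster, a transcript of sensory neurons, summed to 16826 to 35423 CPM in naive and 19205 to 20507 CPM in injured libraries, and all 6 of its listed arms were tested. Naive libraries 4 and 5 stood apart. Their Spearman correlations with the other 6 C57BL/6 libraries, over all listed miRNAs, were 0.903 to 0.934, and 0.938 with each other, against 0.941 to 0.972 among the other 6. Relative to naive libraries 1 to 3, 184 of the 607 miRNAs differed in them by more than 1 on the log2 scale and 29 by more than 2. The motor neuron miRNA miR-218-5p was at 5001, 5846 and 3986 CPM in naive libraries 1 to 3, at 260520 and 81350.5 CPM in naive libraries 4 and 5, and at 16420.3, 4085 and 4911 CPM in the injured libraries. Injured library 1 thus lay above naive libraries 1 to 3 and the other 2 injured ones, and far below naive 4 and 5. Changes are therefore given with all 8 libraries and without naive libraries 4 and 5 (6 libraries). Both comparisons use the same 3 injured libraries and share naive libraries 1 to 3, so neither supports the other. What sets the 2 libraries apart was not tested.

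The sequences of the miRNAs that the results turn on are given here, with the seed in capitals, so that shared seeds can be seen. They come from RefSeq on the build GRCm38.p6, which matched 918 of the 1123 names and 507 of the 607 tested. The first group lies on chromosome 12 in the Dlk1-Dio3 domain, an imprinted region whose miRNAs come from the maternal chromosome.
miR-431-5p, chr12:109590459-109590479, plus strand, opposite an exon of Rtl1: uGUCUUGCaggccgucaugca
miR-493-5p, chr12:109580243-109580261, plus strand, between annotated genes: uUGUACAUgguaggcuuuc
miR-379-5p, chr12:109709065-109709085, plus strand, between annotated genes: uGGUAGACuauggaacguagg
miR-485-3p, chr12:109734946-109734967, plus strand, exon of the non-coding gene Mirg: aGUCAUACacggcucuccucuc
miR-410-3p, chr12:109743764-109743784, plus strand, exon of Mirg: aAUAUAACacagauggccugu

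Next come the miR-344 miRNAs, which lie in repeated copies on the minus strand of chromosome 7, some of them in introns of the non-coding gene A230057D06Rik. Both miR-344e-3p and miR-344d-3p share the seed AUAUAAC with miR-410-3p above, from another chromosome, while miR-344h-3p carries GUAUAAC.
miR-344e-3p, chr7:61735539-61735560, intron of A230057D06Rik: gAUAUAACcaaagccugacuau
miR-344d-3p, 3 copies, the first at chr7:61683127-61683148 between annotated genes: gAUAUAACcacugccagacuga
miR-344h-3p, 2 copies, the first at chr7:61739350-61739371 in an intron of A230057D06Rik: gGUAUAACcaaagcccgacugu

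The remaining sequences belong to miRNAs hosted by other genes, among them the growth-cone gene Gap43 and the macrophage mannose receptor gene Mrc1.
miR-6540-3p, chr16:42303386-42303406, minus strand, intron of Gap43: uCUGAAGCuugcuuaccucca
miR-511-3p, chr2:14261051-14261072, plus strand, intron of Mrc1: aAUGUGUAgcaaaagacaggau
miR-21a-5p, chr11:86584120-86584141, minus strand, exon of Vmp1: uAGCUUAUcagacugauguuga
miR-135a-5p, 2 copies, one at chr10:92072141-92072163, minus strand, intron of the non-coding gene Rmst: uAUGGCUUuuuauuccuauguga
miR-551b-3p, chr3:29416879-29416899, plus strand, intron of Egfem1: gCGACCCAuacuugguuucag

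With all 8 libraries, 3 of 607 miRNAs were higher after injury (0.494%) and 0 were lower (0%). At an unadjusted p under 0.05 there were 56 higher and 46 lower, but this split followed the scaling, with 67 and 27 on library totals, 50 and 36 on totals without the 3 most abundant miRNAs, and 41 and 57 on DESeq2 size factors (38 and 62 with edgeR). The 3 were miR-431-5p, miR-6540-5p and miR-344e-3p.

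miR-431-5p is known from work on sensory neurons, where it promotes axon growth by silencing Kremen1, an antagonist of Wnt signalling. It stood at 78.0, 103, 71.7, 106 and 84.5 CPM in naive libraries 1 to 5 and at 311, 259.9 and 284 CPM in the injured libraries. All 3 injured libraries lay above all 5 naive ones, with a gap larger than the range within either group. The mean went from 88.5 ± 15.1 (SD, n = 5) to 285 ± 25.3 CPM (SD, n = 3). This is a log2 change of 1.69 ± 0.26 (SE), at an adjusted p of 0.0188 by limma. Without naive libraries 4 and 5 it was 1.76 ± 0.22 (adjusted p = 0.00491). Its other arm, miR-431-3p, was at 17.7, 47.4, 29.1, 27.9 and 23.7 CPM in naive and 43.2, 38.7 and 51.8 CPM in injured libraries. These ranges overlapped, and the change of 0.66 did not pass (adjusted p = 0.350, and 0.59 without naive 4 and 5).

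miR-6540-5p comes from the same hairpin as miR-6540-3p, in the intron of Gap43, a gene that sensory neurons switch on when they regrow axons. Its naive values were 41.0, 41.8, 30.4, 37.3 and 23.3 CPM and its injured values 98.8, 128 and 123 CPM, again without overlap. The log2 change was 1.74 ± 0.29 (limma adjusted p = 0.0256), and 1.61 ± 0.22 without naive libraries 4 and 5 (adjusted p = 0.00563). The scarcer arm miR-6540-3p was at 5.62, 4.46, 3.04, 6.43 and 14.3 CPM in naive libraries, with library 5 the highest, and at 17.9, 23.3 and 22.9 CPM in injured ones. It did not pass with all 8 libraries (log2 change 1.67, adjusted p = 0.118) and passed without naive libraries 4 and 5 (2.08 ± 0.30, adjusted p = 0.00563). Both arms of the Gap43 hairpin thus lay above every naive library in all 3 injured ones.

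miR-344e-3p was at or near 0 in naive ganglia, at 0, 0.0810, 1.77, 0 and 0 CPM, and reached 6.67, 6.68 and 10.5 CPM after injury. In reads that is 8 over the 5 naive and 247 over the 3 injured libraries, and naive library 3 held nearly all of the naive reads. The log2 change was 2.82 ± 0.41 (limma adjusted p = 0.0188) and 2.61 ± 0.50 without naive libraries 4 and 5 (adjusted p = 0.0302). It is one of the miRNAs that entered the test only through the injured libraries, and with edgeR on the reads it did not pass in either comparison. With 10 CPM as the filter it was not tested.

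Leaving out any 1 of the 3 injured libraries left 0 calls with limma (45, 57 and 45 miRNAs at an unadjusted p under 0.05), although the log2 change of miR-431-5p stayed between 1.58 and 1.83 and that of miR-6540-5p between 1.61 and 1.88 over 24 alternatives. edgeR on the recovered reads called 0 with all 8 libraries (100 at an unadjusted p under 0.05), and DESeq2 called 10 higher and 26 lower.

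**Figure D1:**
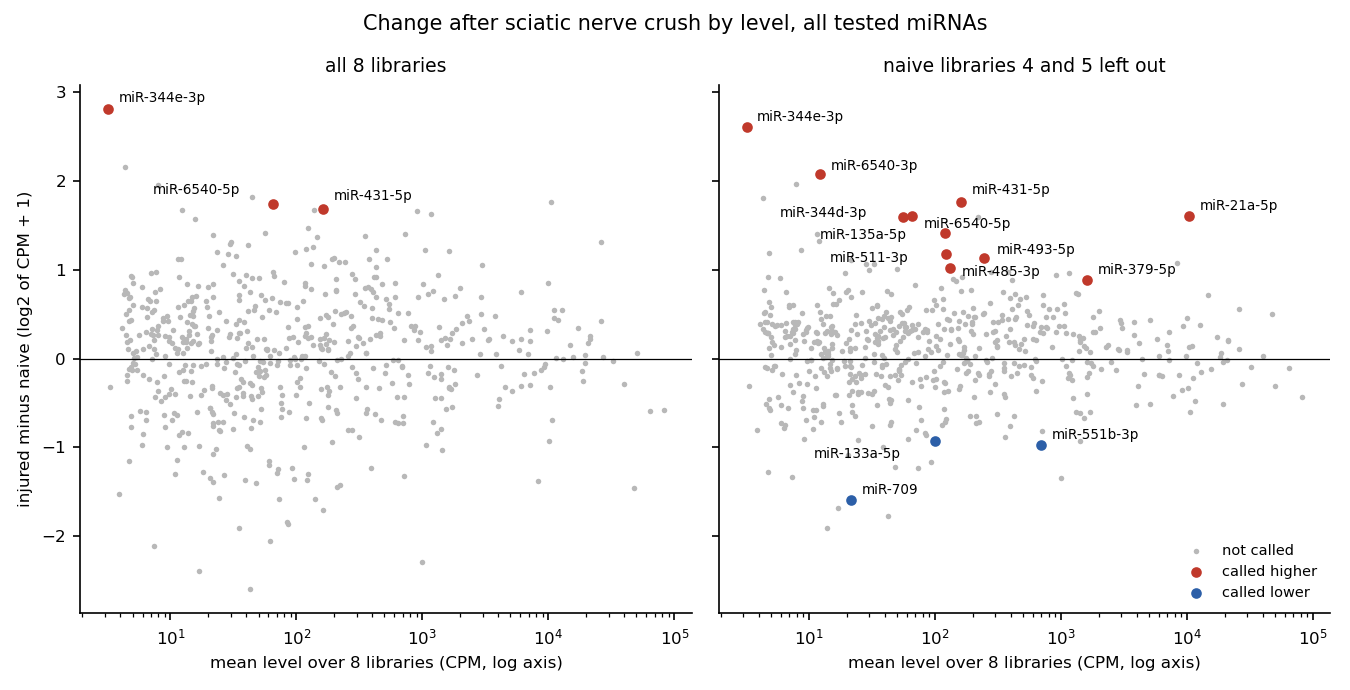
Change after nerve crush (injured minus naive, log2 of CPM + 1) against the mean level over the 8 C57BL/6 libraries (CPM, log axis), with 1 point per miRNA tested. The left panel uses all 8 libraries and has 3 calls, all higher, and the right panel leaves out naive libraries 4 and 5 and has 11 calls higher (red) and 3 lower (blue), on a vertical spread that is visibly narrower.

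Leaving out naive libraries 4 and 5 brought 14 calls, 11 higher (1.81%) and 3 lower (0.494%). They hold the 3 above and 11 others. With the library totals of the recovered reads as scaling the split was 10 higher and 0 lower, with totals that omit the 3 most abundant miRNAs 10 and 1, and with DESeq2 size factors 9 and 4. edgeR called 8 higher and 5 lower. The standard error was smaller in 552 of 607 miRNAs, with a median of 0.27 against 0.38 and 2 libraries fewer. Those 2 were left out because they stand apart in these same values, so a smaller spread was largely built in. Of the 14 called miRNAs, 12 did not overlap between the 3 injured and all 5 naive libraries, where over all 607 miRNAs 8.4% lay above and 6.43% below. The 14 were called on most of the same libraries, so this count is a description.

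miR-21a-5p, which wounded and inflamed tissues commonly raise, was the most abundant of the 11, at 5753, 4997, 7610.3, 2832 and 7419 CPM in naive and 19696, 16765 and 18569 CPM in injured libraries. Every injured library lay above every naive one, naive 4 and 5 included. Its log2 change was 1.60 ± 0.20 without naive libraries 4 and 5 (limma adjusted p = 0.00491). With all 8 it was 1.76 ± 0.34 and just missed the threshold (adjusted p = 0.0530), with naive library 4 at less than all others. The arm miR-21a-3p was too scarce to be tested, at 2.17 CPM in naive and 7.43 CPM in injured libraries on average. miR-21c, which shares the seed of miR-21a-5p and is named for that reason, had a log2 change of 0.45 at a mean of 8.18 CPM in naive libraries (adjusted p = 0.744, and 1.23 without naive 4 and 5).

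miR-511-3p, whose host gene Mrc1 marks tissue macrophages, was at 109, 83.8, 76.3, 51.8 and 54.7 CPM in naive and at 221, 196 and 191 CPM in injured ganglia, without overlap. The change was 1.18 ± 0.22 without naive libraries 4 and 5 (limma adjusted p = 0.0233) and 1.47 ± 0.31 with them (adjusted p = 0.0719). In such tissue, more cells of a type and more RNA per cell cannot be told apart.

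Among the other calls, miR-344d-3p shares the seed of miR-344e-3p at a higher level. It was at 31.2, 25.5, 31.4, 25.7 and 60.9 CPM in naive libraries, with library 5 the highest, and at 94.8, 97.6 and 79.2 CPM in injured ones (log2 change 1.59 ± 0.21, limma adjusted p = 0.00491, and 0.108 with all 8). miR-135a-5p went from 62.1, 78.7, 66.4, 77.4 and 112 CPM to 217, 142 and 203 CPM (1.41 ± 0.23, adjusted p = 0.0145, and 0.108 with all 8). Its paralog miR-135b-5p did not pass, with 0.10 with all 8 libraries and −0.26 without naive 4 and 5. No injured library overlapped a naive one for miR-344d-3p or miR-135a-5p.

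The Dlk1-Dio3 domain gave the 3 remaining increases. miR-493-5p was at 164, 174, 162, 147 and 218 CPM in naive and 391, 341 and 365 CPM in injured libraries (1.13 ± 0.19, limma adjusted p = 0.0160). miR-485-3p was at 84.3, 114, 86.1, 114 and 66.8 and 165, 199 and 216 CPM (1.03 ± 0.22, adjusted p = 0.0462). miR-379-5p, which opens the largest cluster of the domain, was at 1359.7, 1222, 1437, 989 and 578 and 2527, 2325 and 2563 CPM (0.89 ± 0.19, adjusted p = 0.0462). All 3 separated the injured from all 5 naive libraries, and none passed with all 8 (adjusted p = 0.106, 0.119 and 0.119). Their other arms did not pass in either comparison, with log2 changes for miR-493-3p of 1.18 and 1.07, for miR-485-5p of −0.41 and −0.02, and for miR-379-3p of 0.65 and 0.80, with and without naive libraries 4 and 5.

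Of the 3 decreases, 2 rested on the libraries left out. The muscle miRNA miR-133a-5p was at 152, 147 and 139.9 CPM in naive libraries 1 to 3 and 68.1, 84.8 and 76.8 CPM in injured ones, but at 36.2 and 94.6 CPM in naive libraries 4 and 5, which span the injured values. Its log2 change was −0.93 ± 0.20 (limma adjusted p = 0.0462) and −0.41 ± 0.46 with all 8 (adjusted p = 0.670). miR-551b-3p was at 888, 1166 and 809 CPM in naive libraries 1 to 3, 478 and 799 CPM in 4 and 5, and 496, 478 and 464 CPM after injury (−0.97 ± 0.21, adjusted p = 0.0462, and 0.283 with all 8). Here naive library 4 lay within the injured range. Its scarce other arm miR-551b-5p was at 8.22, 6.40, 5.83, 4.25 and 6.40 CPM in naive and 1.59, 2.46 and 2.64 CPM in injured libraries and did not pass (−1.15 and −1.28, adjusted p = 0.119 and 0.0945). miR-709 was at 24.8, 23.1, 51.4, 30.1 and 15.0 CPM in naive and 8.56, 8.11 and 12.5 CPM in injured libraries, the naive ones all above the injured ones (−1.60 ± 0.34, adjusted p = 0.0462, and 0.126 with all 8).

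**Figure D2:**
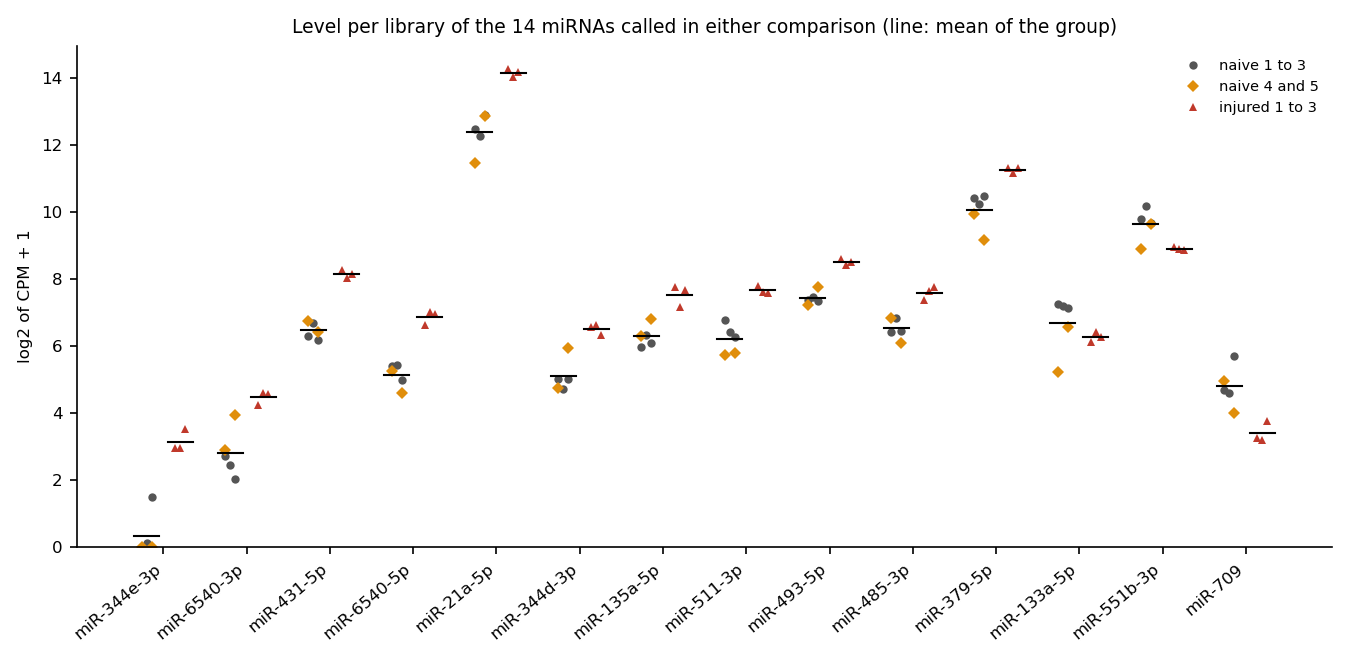
Level in each C57BL/6 library (log2 of CPM + 1) of the 14 miRNAs called in either comparison, with grey circles for naive libraries 1 to 3, orange diamonds for naive 4 and 5, red triangles for the injured libraries and a line at each group's mean. The injured values lie outside the range of all 5 naive ones for 12 of the 14, and overlap it for miR-133a-5p and miR-551b-3p.

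For the same 14 miRNAs, the injury effects were compared with those in CAST/Ei ganglia, in 1 model over all 14 libraries. The difference of the injury effects was called for 0 of 607 miRNAs (0%) with limma, with 48 at an unadjusted p under 0.05, and 0 and 53 without naive 4 and 5. edgeR called 1 and DESeq2 called 3. miR-431-5p changed by 1.69 in C57BL/6 and had a change of 1.93 in CAST/Ei, a difference of −0.24 with a 95% interval from −1.10 to 0.63. For miR-6540-5p the CAST/Ei value was 1.73 and the interval of the difference ran from −0.76 to 0.79, and for miR-21a-5p these were 1.57 and −0.73 to 1.10. None of these 3 intervals leaves out 0, and none shows that the strains respond alike. Of the 14, 12 had the same sign in CAST/Ei, beside 331 of all 607, and the 2 others were miR-709 (0.70 in CAST/Ei) and miR-379-5p (−0.03). The 14 were called on their C57BL/6 effect, which is also part of this difference, so intervals away from 0 are favoured among them. As a description only, the unadjusted 95% interval left out 0 for 4 of the 14, beside 48 of 607. Those were miR-344e-3p (0.44 to 2.75), miR-135a-5p (0.13 to 1.78), miR-379-5p (0.39 to 2.10) and miR-709 (−3.45 to −0.73), and none passed after adjustment (lowest adjusted p over all miRNAs = 0.536).

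Besides miR-21a-5p and miR-511-3p, the miRNAs nearest the threshold with all 8 libraries were miR-344h-3p, miR-7689-3p and miR-493-5p. miR-344h-3p was at 0.822, 2.43, 2.53, 0.345 and 0.752 CPM in naive and 5.58, 9.24 and 13.2 CPM in injured libraries (2.16 ± 0.43, limma adjusted p = 0.0532, and 1.81 with adjusted p = 0.0604 without naive libraries 4 and 5). miR-7689-3p, which lies opposite an intron of Sorcs2, was at 0.822, 4.94, 5.32, 3.68 and 2.63 and 11.3, 14.5 and 20.4 CPM (1.96 ± 0.44, adjusted p = 0.0951, and 1.96 with adjusted p = 0.0670 without them). For both, every injured library exceeded every naive one. Neither would have been tested on its naive values alone.

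The largest changes that did not pass with all 8 libraries were, apart from miR-344h-3p, decreases with wide naive ranges. miR-6240 was at 13.6, 29.2, 46.6, 94.9 and 136 CPM in naive and 8.56, 7.80 and 5.19 CPM in injured libraries, where naive 4 and 5 held the highest values (−2.60 ± 0.65, limma adjusted p = 0.118, and −1.78 with adjusted p = 0.0536 without them). miR-150-5p, a lymphocyte miRNA, was at 417, 1658, 170.3, 2713 and 2382 and 315, 149 and 153 CPM, and naive library 3 fell inside the injured range (−2.29 ± 0.84, adjusted p = 0.256, and −1.34 without naive 4 and 5). miR-500-3p, at 1.23, 71.9, 2.03, 36.9 and 18.2 and 1.39, 0.411 and 3.37 CPM, and miR-6538, at 4.38, 9.32, 1.52, 26.4 and 13.9 and 1.39, 0.308 and 1.82 CPM, were scattered over the naive libraries as well (−2.40 ± 1.07 and −2.11 ± 0.68, and −1.69 and −1.33 without naive 4 and 5). For miR-150-5p, miR-500-3p and miR-6538 the ranges of the groups overlapped.

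As a background for what follows, every injured library lay above every naive one for 51 of 607 miRNAs and below for 39 with all 8 libraries. With naive libraries 1 to 3 these were 87 (14.3%) and 60 (9.88%). At an unadjusted limma p under 0.05, 56 of 607 were higher and 46 lower with all 8 libraries, and 61 and 42 without naive 4 and 5. The median log2 change of all 607 was 0.11 and 0.13, and 346 and 365 of them lay above 0. Scaling by library totals moved the first median to 0.26, a shift of more than 0.1, so medians of groups below are to be read against the median of all miRNAs. Between the 2 comparisons 129 of 607 changes differed in sign. Median standard errors with all 8 libraries ran from 0.35 for the 107 miRNAs at 1000 CPM or more to 0.40 for the 92 below 10 CPM, and without naive libraries 4 and 5 from 0.22 to 0.38.

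miRNAs are grouped below by role. The groups were drawn from general knowledge of miRNAs with earlier results of these data known, and each is described by its counts and its median, without a test. Of 34 groups, 31 had 0 calls with limma and all 8 libraries, and 28 had 0 in both comparisons. In these 28, edgeR also called 0 in both, and 14 of them had no miRNA at an unadjusted p under 0.05 in either comparison. DESeq2 called 3 lower in them with all 8 libraries, in the lymphocyte and erythrocyte groups. Without naive 4 and 5 it called 1 erythrocyte miRNA lower, and 1 higher and 1 lower in the miR-34 and miR-449 family. For members tested only through the injured libraries the filter favours increases, so they can raise a group's counts. Besides the groups where this is said below, there were 2 such members among miRNAs reported as raised after nerve injury, 2 in the inflammation group, and 1 each in the glial, lymphocyte, muscle, let-7, miR-17, miR-34 and miR-23/27/24 groups. The lymphocyte member, miR-155-3p, also counts in the nerve injury and inflammation groups. It went the other way with all 8 libraries (−1.31, and 0.75 without naive 4 and 5). For the other groups with 0 calls, counts at an unadjusted p under 0.05 stand beside the median.

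The Dlk1-Dio3 domain was the largest group, with 90 of 105 listed arms tested, 2 of them only through the injured libraries. One was called higher with all 8 libraries (miR-431-5p) and 4 without naive 4 and 5, and 0 were lower in either. At an unadjusted limma p under 0.05, 25 and 27 of the 90 were higher and 0 lower. Over all 607 miRNAs 56 and 61 were higher, and 46 and 42 lower. edgeR called 0 and 2 of the domain's arms higher, DESeq2 2 and 14, and neither called any of these arms lower. The median change was 0.50 with all 8 libraries and 0.41 without naive 4 and 5, against 0.11 and 0.13 for all miRNAs, and it stayed between 0.41 and 0.64 over 14 other scalings, pseudocounts and sets of libraries. Of the 90, 71 lay above 0 with all 8 libraries and 75 without naive 4 and 5. The injured libraries lay above all naive ones for 19 and 29 members and below for 0 and 0. Over all 607 miRNAs 8.4% and 14.3% lay above, and 6.43% and 9.88% below. The summed level of the listed members was 25413 to 31252 CPM in naive and 33622 to 39471 CPM in injured libraries, without overlap.

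The 3 stretches of the domain had like medians with all 8 libraries. Of the 90 tested arms, 87 have a RefSeq position on chromosome 12 and fall into 3 runs separated by more than 10000 bases. The run from miR-770 to miR-136 (23 arms), which includes the transcript opposite Rtl1, had a median of 0.49 with all 8 libraries and 0.35 without naive 4 and 5. The run of 4 arms from miR-341 to miR-370 had 0.49 and 0.11. The run from miR-379 to miR-3072 (60 arms), the densest, had 0.49 and 0.44, with 50 and 52 of its 60 arms above 0. By arm, the 49 3p arms of the domain had medians of 0.66 and 0.47, and the 41 5p arms 0.32 and 0.29, where all 292 tested 3p arms had 0.11 and 0.20 and all 271 5p arms 0.18 and 0.12.

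Of the 4 most abundant members, only miR-379-5p (above) was called, without naive 4 and 5. miR-434-3p was at 2276, 2214, 2444, 848 and 2326 CPM in naive and 1678, 2252 and 2564 CPM in injured libraries, with a log2 change of 0.17 with all 8 libraries and −0.12 without naive 4 and 5. miR-376a-3p, at 2078, 1846, 1678, 1149 and 2538 and 2180.4, 2129 and 2852 CPM, had 0.40 and 0.35. miR-382-5p, at 1898, 1386, 1887, 2100.0 and 1242 and 1851, 2189.9 and 2305 CPM, had 0.34 and 0.30. None of these 3 passed. miR-410-3p, the carrier of the miR-344e-3p seed in this domain and named for that, was at 126, 126, 362, 531 and 839.6 CPM in naive and 288, 363 and 421 CPM in injured libraries, with naive 4 and 5 above all injured values, and its change was 0.22 with them and 0.97 without (limma adjusted p = 0.861 and 0.243). The lowest value of the domain, picked after the values were seen, was that of miR-494-5p, at 6.71, 10.1, 4.56, 855 and 364 CPM in naive and 41.1, 5.75 and 7.10 CPM in injured libraries (−1.71 with all 8 libraries and 0.76 without naive 4 and 5).

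**Figure D3:**
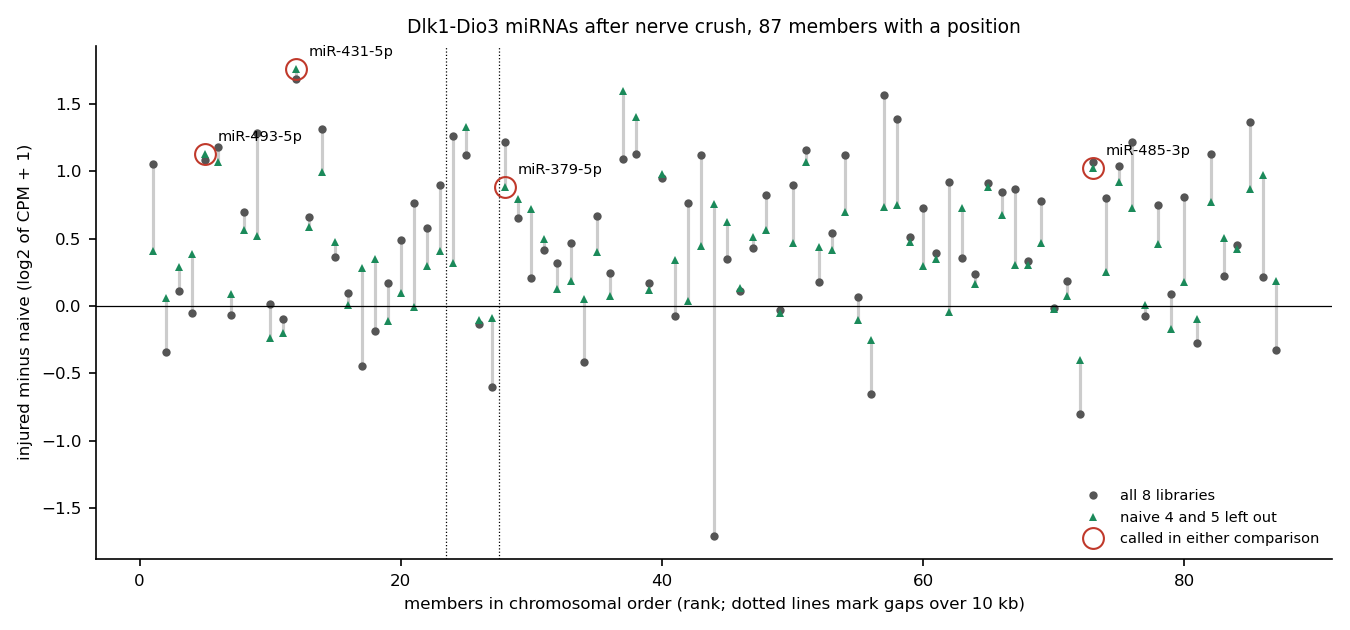
Change after nerve crush (log2 of CPM + 1) of the 87 Dlk1-Dio3 arms with a position, in their order along the chromosome (rank on the horizontal axis), with all 8 libraries (grey circles) and without naive libraries 4 and 5 (green triangles), joined by a line. Dotted lines part the 3 runs, where 17, 2 and 50 of 23, 4 and 60 arms lie above 0 with all 8 libraries, and the 4 arms called in either comparison are ringed.

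The miR-344 group had a median of 1.03 with all 8 libraries and 0.99 without naive 4 and 5, over 6 tested arms of which 2 were tested only through the injured libraries. Those 2, miR-344e-3p and miR-344h-3p, had the largest changes of the 6 in both comparisons and raise the median. They and miR-344d-3p are described above. The others were miR-344-3p, at 73.8, 61.0, 81.3, 48.9 and 44.6 CPM in naive and 92.4, 92.9 and 97.2 CPM in injured libraries (0.63, limma adjusted p = 0.306, and 0.39 without naive 4 and 5), and miR-344c-3p (0.47, adjusted p = 0.506, and 0.31 without naive 4 and 5). miR-344b-3p stood on the other side, at 51.8, 43.3, 56.0, 49.6 and 47.2 CPM in naive and 36.7, 42.2 and 29.8 CPM in injured ganglia, below every naive library (−0.45 and −0.47, adjusted p = 0.407 and 0.329). It stayed below 0, between −0.56 and −0.31, in all 24 alternatives to the comparison of all 8 libraries. Some of these left libraries out, naive 4 and 5 among them, or added the CAST/Ei ones.

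The repeat-derived miR-297, miR-466, miR-467 and miR-669 names, most of them from an intron of Sfmbt2 on chromosome 2, are taken as 1 group of 40 tested arms, 3 of them tested only through the injured libraries. Their sequences are nearly the same, so reads can be shared or split between them, and 3 of the names have RefSeq positions on other chromosomes. No arm was called in either comparison (2 and 5 higher and 0 lower at an unadjusted p under 0.05, and 0 with edgeR and DESeq2). The median was 0.45 and 0.32, and 37 of 40 lay above 0 in each comparison. miR-669a-3p, for instance, was at 219.9, 189.7, 216, 201 and 203 CPM in naive and 366, 259.8 and 268 CPM in injured libraries (0.52, limma adjusted p = 0.324, and 0.50 without naive 4 and 5), and these ranges did not overlap. miR-669o-3p had 0.53 and 0.51, miR-467a-5p 0.23 and 0.53, and miR-467e-5p 0.36 and 0.33. The injured libraries lay above all naive ones for 4 of 40 arms (5 without naive 4 and 5), shares near those over all miRNAs.

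miRNAs reported as raised after nerve injury gave 21 tested arms, with a median of 0.30 and 0.42. One passed with all 8 libraries and 3 without naive 4 and 5, all higher. They were miR-431-5p, miR-21a-5p and miR-511-3p, and the list was drawn up with results for them known. The change of miR-222-3p, linked to cell proliferation, differed in sign between the comparisons. It was at 126, 227, 338, 5619 and 1383 CPM in naive and 376, 256 and 292 CPM in injured libraries, with naive 4 and 5 above all others, and had −0.97 and 0.51. Its partner miR-221-3p was at 313, 513, 628, 546 and 299 and 625, 694 and 706 CPM (0.61 and 0.53, limma adjusted p = 0.350 and 0.356). The pair of miR-221 and miR-222 had 3 tested arms, among them miR-221-5p at 0.30 and 0.25, which was tested only through the injured libraries. It is itself the median of the 3 with all 8 libraries, 0.30, and the median was 0.51 without naive 4 and 5.

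The activity-regulated miR-132 cluster had 3 tested arms with a median of 0.82 and 0.42 and 0 calls (1 higher at an unadjusted p under 0.05 with all 8 libraries, then 0). miR-132-3p, which acts in neurite growth, was at 44.8, 49.1, 41.3, 18.7 and 19.0 CPM in naive and 64.9, 60.9 and 56.5 CPM in injured libraries. The injured values lay above all naive ones, but the change of 0.91 ± 0.39 did not pass (limma adjusted p = 0.287), and it was 0.42 without naive 4 and 5. miR-132-5p had 0.82 and 0.44, and miR-212-3p 0.31 and 0.25.

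miRNAs reported as lowered after nerve injury gave 17 tested arms, 0 calls and a median of −0.16 with all 8 libraries and 0.13 without naive 4 and 5 (0 higher and 2 lower at an unadjusted p under 0.05, then 0 and 1). They include the neuronal miR-138-5p, the most abundant miRNA in these ganglia, at 73154, 94492, 87457, 104665 and 113664 CPM in naive and 61179.7, 66747 and 59722 CPM in injured libraries. All 5 naive values lay above all 3 injured ones, but the change of −0.58 ± 0.23 did not pass (limma adjusted p = 0.280, and −0.44 with adjusted p = 0.219 without naive 4 and 5). miR-30b-5p, at 5276, 6190.1, 8122, 7667 and 23134 and 8619, 7619 and 8590.0 CPM, had −0.06 and 0.36, and miR-30d-5p, at 13022, 12640.1, 16654, 8015 and 4602 and 10894, 14762 and 15421 CPM, had 0.43 and −0.05.

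Sensory neuron miRNAs of the miR-183 cluster did not pass. miR-182-5p was at 12505, 7198, 16316, 12096 and 14797 CPM in naive and 6641, 8032 and 7880.4 CPM in injured libraries (−0.70 ± 0.30, limma adjusted p = 0.287, and −0.60 without naive 4 and 5). Naive library 2 lay within the injured range. miR-183-5p, at 7974, 6212, 9244, 16257 and 17884 and 8264, 8214 and 8909.7 CPM, had −0.32 and 0.13, and miR-96-5p, at 1232, 2990.3, 4392, 2757 and 1859.5 and 3817, 3314 and 3192 CPM, had 0.50 and 0.44. The 3 main arms of this single transcript thus had changes of different sign. The median over its 6 arms was 0.03 and 0.22, with a change of sign under 1 of 3 other scalings (1 lower at an unadjusted p under 0.05 with all 8 libraries, then 0). The scarcer arm miR-183-3p had −0.16 and −0.07. The wider neuronal group of 14 arms had 0 calls and a median of −0.07 and 0.01, which also changed sign under 1 scaling (1 lower at an unadjusted p under 0.05 in each comparison). In it miR-124-3p, a neuronal miRNA, was at 33073, 27060.4, 11039, 17964 and 12848 CPM in naive and 24068, 19418 and 20277 CPM in injured libraries (0.18 ± 0.37, and −0.02 without naive 4 and 5). miR-9-5p had 0.10 and 0.22 and miR-137-3p −0.31 and −0.19. With all 8 libraries the 3 had limma adjusted p-values of 0.818, 0.866 and 0.676. Summed neuronal levels were 118039 to 148062 CPM in naive and 97835 to 101467 CPM in injured libraries, without overlap, and miR-138-5p gave more than any other member. How far the share of neurons in the libraries bears on this was not tested.

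Glial miRNAs had 4 tested arms, 0 calls and a median of 0.61 and 0.33 (1 higher at an unadjusted p under 0.05 with all 8 libraries, then 0). miR-338-3p, abundant in myelinating cells, lay above all naive values after injury, at 15061, 33986 and 32272 CPM in naive libraries 1 to 3, 6735 and 7116 CPM in naive 4 and 5 and 36075, 34069 and 42996 CPM in injured libraries. Its change was 1.31 ± 0.55 with all 8 libraries and 0.56 ± 0.29 without naive 4 and 5, and passed in neither (limma adjusted p = 0.283 and 0.371). The arm miR-338-5p had 0.48 and 0.13. miR-219a-5p, a miRNA of myelinating cells of the central nervous system, did not exceed 7.27 CPM in any of the 8 libraries, and miR-219c-3p had 0.36 and 0.10.

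Blood-cell miRNAs are taken by cell type. The myeloid group had 6 tested arms, all above 0 in both comparisons, a median of 1.02 and 0.71, and 1 call, miR-511-3p, without naive 4 and 5. At an unadjusted p under 0.05 there were 4 and 3. miR-142-3p, a miRNA of all leukocytes, was at 513, 962, 1700.1, 226 and 399.9 CPM in naive and 1796, 1659.6 and 2114 CPM in injured libraries, where naive library 3 lay within the injured range (1.63 ± 0.56, limma adjusted p = 0.241, and 0.97 without naive 4 and 5). Its partner arm miR-142-5p, at 304, 315, 302, 334 and 429 and 529, 494 and 464 CPM, did not overlap (0.57 ± 0.25, adjusted p = 0.293, and 0.69 ± 0.19 with 0.0935 without naive 4 and 5). miR-223-3p, a miRNA of granulocytes, was at 2620.2, 3208, 2406, 3247 and 2372 and 4609, 3368 and 2686 CPM (0.34, adjusted p = 0.534, and 0.35 without naive 4 and 5). Summed over the group, levels were 3277 to 4616 CPM in naive and 5556 to 7228 CPM in injured libraries, without overlap. The part of myeloid cells in other results was not tested.

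The lymphocyte group had 3 tested arms with medians of −1.31 and 0.30 (1 lower at an unadjusted p under 0.05 with all 8 libraries, then 0). Against naive libraries 1 to 3, naive 4 and 5 held more of its members, by a median of 2.37. miR-155-5p was at 45.1, 27.6 and 57.3 CPM in naive libraries 1 to 3, 233 and 178 CPM in naive 4 and 5 and 65.7, 43.4 and 47.5 CPM in injured libraries, and the scarcer arm miR-155-3p had −1.31 and 0.75. The inflammation group of 5 arms had −0.29 and 0.35. In it miR-146a-5p, a brake on inflammatory signalling, was at 315, 364, 842, 969 and 1954 and 445, 640.4 and 697 CPM (−0.29 and 0.35), and miR-146b-5p had −0.08 and 0.30. The erythrocyte group of 5 arms had a median of 0.00 and −0.48, with the first changing sign under 1 scaling (1 higher and 2 lower at an unadjusted p under 0.05, then 1 and 1). miR-451a, the main miRNA of red cells, was at 9121, 13932, 25078, 6315 and 6349.9 CPM in naive and 12138, 9332 and 10306 CPM in injured libraries (0.00 and −0.48). miR-144-3p from the same transcript was at 521, 1187, 713, 225 and 207 and 1703, 1221 and 1495 CPM, above all naive values (1.66, limma adjusted p = 0.240, and 0.94 without naive 4 and 5), and miR-486-3p was at 172, 156, 131, 583 and 466 and 88.3, 114 and 78.3 CPM, below all of them (−1.42, adjusted p = 0.256, and −0.71 without naive 4 and 5). miR-144-5p had 0.69 and 0.18. None of these 3 groups had a call with limma in either comparison.

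Skeletal muscle miRNAs, whose source in these libraries was not tested, had 10 tested arms and a median of −0.63 and −0.59. None passed with all 8 libraries (0 higher and 4 lower at an unadjusted p under 0.05), and miR-133a-5p was called lower without naive 4 and 5. The injured libraries lay below all naive ones for 4 of 10 arms, and for 7 of 10 against naive libraries 1 to 3. Over all 607 miRNAs these shares were 6.43% and 9.88%. miR-133a-3p was at 1250.1, 1842, 1830.3, 1798 and 2046 CPM in naive and 667, 878 and 1029.6 CPM in injured libraries (−1.03 ± 0.27, limma adjusted p = 0.119, and −0.93 with adjusted p = 0.0823 without naive 4 and 5). miR-1a-3p, at 10656, 9395, 11816, 3338 and 13406 and 8787, 7844 and 8155 CPM, had −0.09 and −0.36. Naive library 4 was the lowest of the 8 for miR-1a-3p. miR-1b-5p had −0.20 and −0.44, and miR-133b-3p −0.94 and −0.65. The summed level was 13123 to 15622 CPM in naive libraries 1 to 3, 6137 and 18257 CPM in naive 4 and 5, and 10024 to 10959.9 CPM in injured libraries. The part of muscle RNA in other results was not tested.

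Vessel and connective tissue miRNAs had no call. The 4 endothelial arms had medians of 0.38 and 0.24, and miR-126a-3p, at 10686, 12093, 13776, 10829.7 and 7701 CPM in naive and 15884, 15082 and 16389 CPM in injured libraries, separated the groups without passing (0.54 ± 0.25, limma adjusted p = 0.307, and 0.38 without naive 4 and 5). At an unadjusted p under 0.05 there were 0 with all 8 libraries and 1 higher without naive 4 and 5. Its arm miR-126a-5p had 0.22 and 0.09, and the overlapping miR-126b-3p and miR-126b-5p had 0.21 and 0.53 with all 8 libraries and 0.08 and 0.57 without naive 4 and 5. The mural group (5 arms) had −0.07 and 0.17 and the fibroblast group (6 arms) −0.12 and 0.28. With all 8 libraries the sign of the mural median changed under 2 of 3 other scalings and that of the fibroblast median under 1. miR-143-3p, a smooth muscle miRNA, was at 2843, 3558, 4012, 3723 and 7760.3 and 3929, 3639 and 4059.8 CPM (−0.09 with all 8 libraries and 0.17 without naive 4 and 5). Its partners miR-145a-5p, miR-145a-3p and miR-145b had −0.17, 0.03 and −0.07 with all 8 libraries and −0.42, −0.01 and 0.20 without naive 4 and 5. miR-214-3p of connective tissue was at 1188, 1234, 844, 916 and 1635 and 1056, 1095 and 903 CPM (−0.16 and −0.08). miR-199a-3p and miR-199b-3p, whose reads cannot be told apart, had −0.17 and −0.23 with all 8 libraries, and 0.26 and 0.21 without naive 4 and 5, so that the sign turned. miR-199b-5p had 0.86 and 0.41.

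Several miRNAs named for other tissues differed in naive libraries 4 and 5, and their source was not tested either. The 7 epithelial arms had a median of −0.98 with all 8 libraries and −0.02 without naive 4 and 5, and were higher in those 2 by a median of 2.16. miR-200a-3p was at 5.75, 11.7 and 8.61 CPM in naive libraries 1 to 3, 576 and 115 CPM in naive 4 and 5 and 24.6, 9.24 and 8.92 CPM in injured libraries. miR-141-3p and miR-200b-3p had −1.29 and −1.19 with all 8 libraries and 0.83 and 0.54 without naive 4 and 5, and the skin miRNA miR-203-3p 0.20 and −0.14. The liver miRNA miR-122-5p was at 8.63, 13.4 and 15.7, then 661 and 369, and 37.7, 12.7 and 11.6 CPM in the same order. miR-367-3p of the miR-302 cluster of pluripotent cells was at 319.9, 466 and 316, 48099.9 and 13814, and 2779.9, 294 and 547 CPM. With all 8 libraries the changes of miR-122-5p, miR-218-5p and miR-367-3p were −1.58, −1.46 and −1.38, and without naive 4 and 5 they were 0.51, 0.50 and 1.08. In each case the sign turned, and injured library 1 held the highest injured value. The hypoxia miRNA miR-210 (2 arms) had a median of −0.86 and −0.36, with miR-210-3p at 353, 395, 237, 901 and 951 CPM in naive and 331, 278 and 301 CPM in injured libraries and miR-210-5p at −1.02 and −0.64 (1 lower at an unadjusted p under 0.05 with all 8 libraries, then 0). None of these passed in either comparison. In the plot of group medians, the medians with all 8 libraries and the horizontal axis share naive libraries 4 and 5, so a downward slope is built in.

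**Figure D4:**
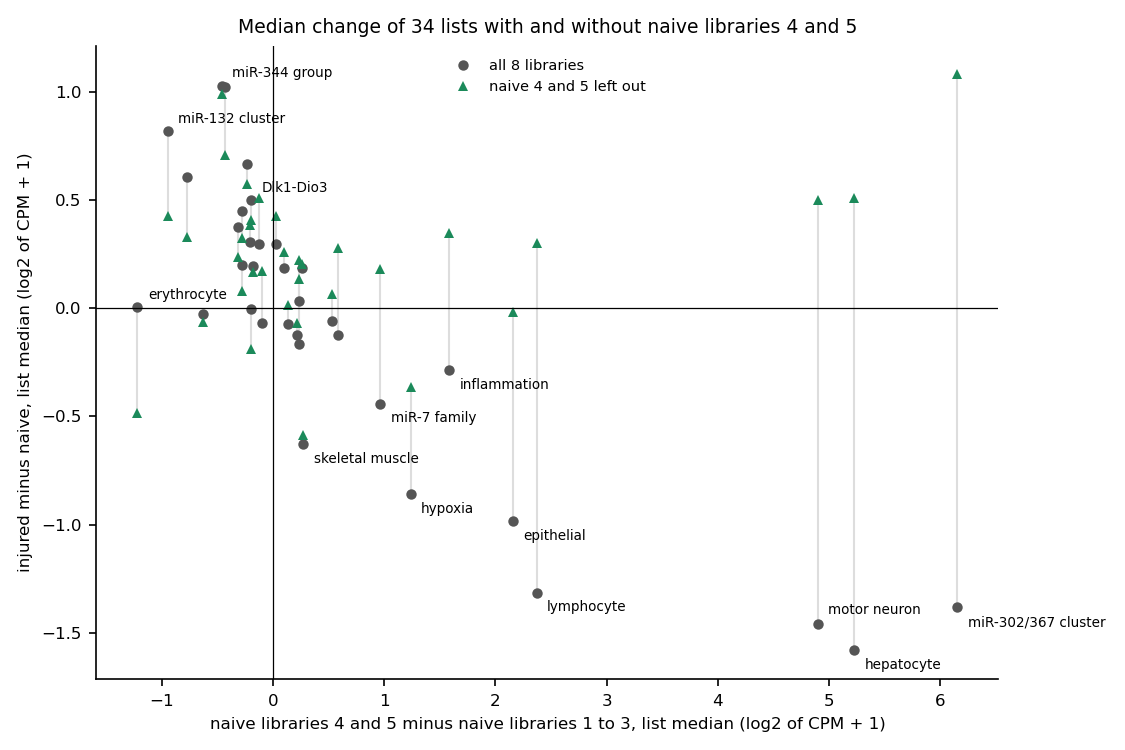
Median change after nerve crush of 34 groups of miRNAs (vertical axis, log2 of CPM + 1) against how far naive libraries 4 and 5 lay from naive libraries 1 to 3 (horizontal axis, same scale), with all 8 libraries as grey circles and without naive 4 and 5 as green triangles. The lymphocyte, epithelial, hepatocyte, motor neuron and miR-367 groups, far to the right, lie below 0 with all 8 libraries. Without naive 4 and 5 they lie at or above −0.02. The hepatocyte, motor neuron and miR-367 groups hold 1 tested arm each. The inflammation group (1.58) lies at −0.29 and 0.35. The hypoxia group, also to the right (1.24), lies below 0 in both, at −0.86 and −0.36.

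The remaining families had 0 calls with limma in both comparisons except for miR-135a-5p. Medians and changes are given with all 8 libraries and then without naive 4 and 5. The let-7 family, which restrains growth programmes, had a median of 0.19 and 0.20 over 22 arms (1 higher at an unadjusted p under 0.05 in each comparison). let-7a-5p was at 25423, 14376, 21591, 26972 and 12575 CPM in naive and 28643, 20357 and 21059.8 CPM in injured libraries, with overlapping ranges and changes of 0.26 and 0.21. let-7f-5p had 0.22 and 0.20, let-7c-5p −0.14 and 0.02 and let-7g-5p 0.55 and 0.14. The miR-17 and paralogous clusters, which act in cell division, had 0.18 and 0.26 over 20 arms (1 higher and 1 lower at an unadjusted p under 0.05, then 2 and 0). Their most abundant arms were miR-19b-3p (0.32 and 0.30), miR-20a-5p (0.67 and 0.23), miR-106b-5p (−0.28 and 0.30) and miR-93-5p (0.21 and 0.09).

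The p53-linked miR-34 and miR-449 family had a median of 0.31 and 0.38 over 8 arms (1 higher and 1 lower at an unadjusted p under 0.05, then 2 and 1). miR-34b-5p was at 93.4, 91.8, 89.4, 39.0 and 32.5 CPM in naive and 161, 142 and 135 CPM in injured libraries, and miR-34a-3p at 304, 224, 219.7, 212 and 253 and 176, 156 and 140.4 CPM. The first lay above and the second below all naive libraries after injury, and neither passed (1.20 and 0.66, and −0.61 and −0.65). miR-34a-5p had −0.00 and −0.15 and miR-34c-5p 0.58 and 0.60. The miR-23/27/24 clusters had 0.19 and 0.17 over 11 arms (0 at an unadjusted p under 0.05, then 2 higher). miR-27b-3p was at 6373, 8798, 12457, 24785 and 22470.4 and 12534, 14629 and 16846 CPM, above naive libraries 1 to 3 but not above naive 4 and 5 (0.15 and 0.71, limma adjusted p = 0.866 and 0.194), and miR-23a-3p had 0.04 and −0.04.

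The miR-135 family (2 arms) had medians of 0.67 and 0.57. The miR-7 family (3 arms) had −0.44 and 0.18, with −0.44 and 0.18 for miR-7a-5p, −0.55 and −0.16 for miR-7b-5p and 0.68 and 0.30 for miR-7a-1-3p. The Hox cluster miRNAs, which mark position along the body, had 0.20 and 0.08 over 7 arms, with −0.13 and −0.18 for miR-10a-5p, 0.20 and 0.08 for miR-10b-5p, 0.51 and 0.21 for miR-196b-5p and 0.07 and −0.05 for miR-196a-5p.

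Medians near 0, each of which changed sign under at least 1 other scaling, were −0.03 and −0.07 for miR-29 (7 arms), −0.06 and 0.06 for miR-30 (9 arms), −0.01 and −0.19 for miR-204 and miR-211 (3 arms), and −0.12 and −0.07 for miR-125 with miR-99/100 (11 arms). In the miR-29 family, which represses collagens, miR-29c-3p had 0.75 and 0.03 and miR-29c-5p −0.16 and −0.07. In the miR-30 family miR-30c-5p had −0.25 and 0.06 and miR-30a-5p 0.02 and −0.12. miR-204-5p had 0.23 and −0.19, miR-204-3p −0.01 and −0.08 and miR-211-5p −0.60 and −0.41. miR-99a-5p had −0.05 and −0.51, miR-125a-5p −0.93 and −0.33 and miR-100-5p −0.37 and −0.51. Near-identical members of let-7, miR-29 and miR-30 can share reads.

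**Figure D5:**
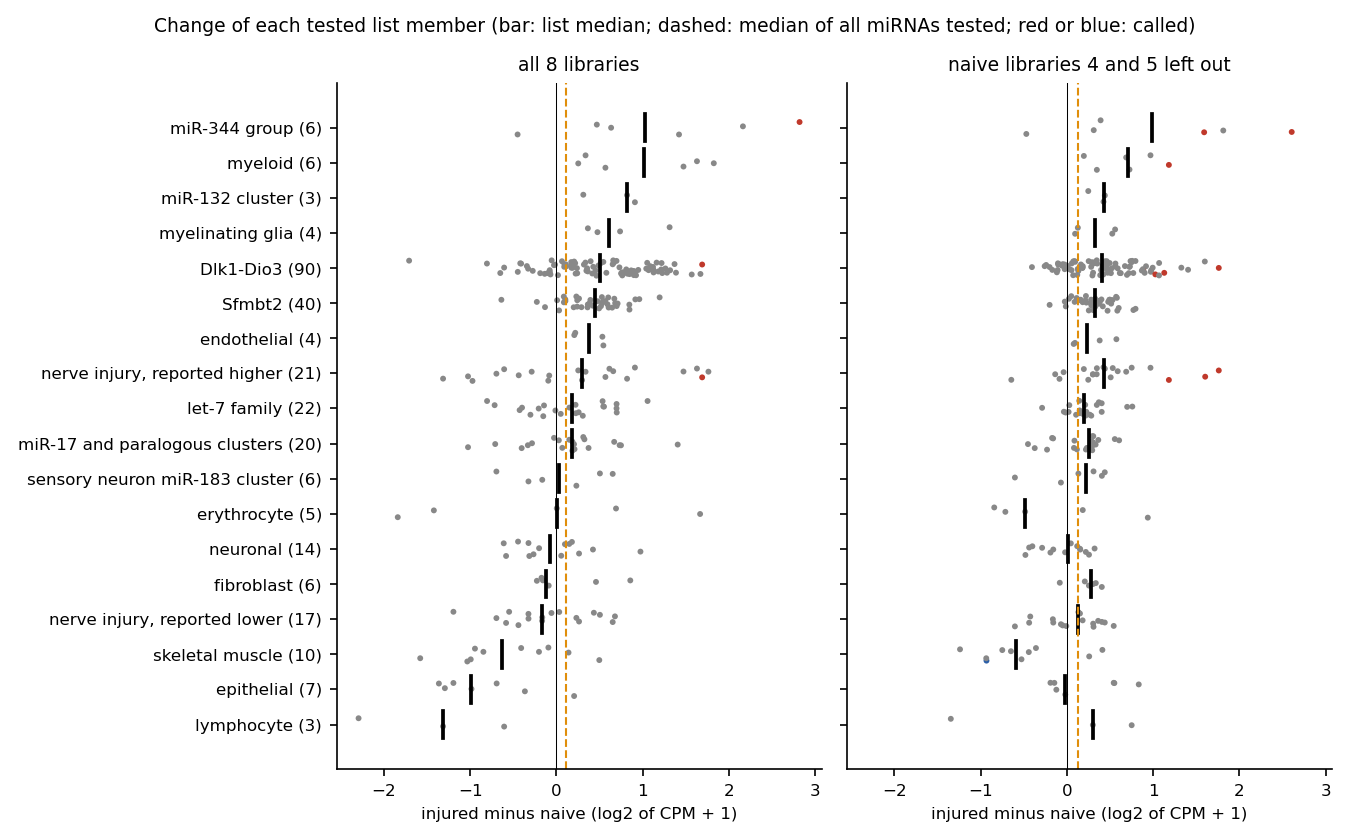
Change after nerve crush (log2 of CPM + 1) of every tested member of 18 groups, with the number tested in brackets, a bar at the group's median, a dashed line at the median of all 607 miRNAs and called members in red (higher) or blue (lower). The left panel uses all 8 libraries and the right panel leaves out naive libraries 4 and 5, where the epithelial median lies at −0.02 in place of −0.98 and the lymphocyte median at 0.30 in place of −1.31.

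Where both arms of a hairpin were tested (182 hairpins), 121 had the same sign of change with all 8 libraries and 126 without naive 4 and 5. Among the 10 most abundant miRNAs none passed. After miR-138-5p the highest were miR-125b-5p, at 50024, 47965, 51110.3, 120285 and 108772 CPM in naive and 43400, 52885 and 42381 CPM in injured libraries, with a 95% interval of the log2 change from −1.40 to 0.22, and miR-29b-3p, at 61166, 60802, 64433, 25606 and 41059 and 52766, 47156 and 50263 CPM, with an interval from −0.67 to 0.79. miR-23b-3p had the narrowest interval of the 10 with all 8 libraries, from −0.52 to 0.48, around values of 32482, 32068, 38744, 35122 and 26027 CPM in naive and 32389.5, 32105 and 31861 CPM in injured ganglia. For miR-26a-5p the interval ran from −0.93 to 0.37 and for miR-24-3p from −0.73 to 0.76. For miR-29a-3p it ran from −0.69 to 1.53, for let-7a-5p from −0.45 to 0.96 and for miR-218-5p from −4.36 to 1.44. The unadjusted intervals of miR-138-5p (−1.10 to −0.07) and miR-338-3p (0.08 to 2.54) left out 0. Without naive 4 and 5 the intervals were −0.47 to 0.25 for miR-125b-5p, −0.64 to 0.02 for miR-29b-3p and −0.45 to 0.26 for miR-23b-3p. They were −0.39 to 0.43 for miR-26a-5p, −0.68 to 0.11 for miR-24-3p, −0.29 to 0.51 for miR-29a-3p and −0.33 to 0.76 for let-7a-5p. Those of miR-138-5p, miR-338-3p and miR-218-5p were −0.80 to −0.08, −0.10 to 1.22 and −0.51 to 1.51.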

How the data were processed

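Small RNA libraries were made from dissociated DRG with an Ion Total RNA-Seq kit after miRVana extraction, per the labels' protocols, and reads were aligned with Bowtie2, per the submitters' processing notes. The genome build is not given in the sources used here. The deposited signal is 1 value per miRNA and library. All values came out as whole reads within 1e-06 reads (100%). In injured library 1 the value of 1 read is close to a round decimal, so its reads are less surely recovered. The values equal CPM on library sizes scaled by TMM over the 14 libraries, to a relative difference of at most 1.04e-05. Plain CPM had been assumed when the tests were chosen, and the tests were kept.

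Values were tested on log2(CPM + 1) with limma 3.58.1 in R 4.3.3 (variance trend, two-sided, Benjamini-Hochberg, threshold 0.05), after a filter of 5 CPM in 3 of 8 libraries. edgeR 4.0.16 (quasi-likelihood) and DESeq2 1.42.0 on the recovered reads were alternatives, and the scripts were checked on simulated data. Depth was 4007706 to 11608088 reads, so that 3 reads correspond to 0.243 to 0.760 CPM. Reads are not independent molecules.

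The comparisons, groups of miRNAs and members were chosen with earlier results of these data known. Named are all miRNAs called with all 8 libraries and their other arms, the 10 largest changes called only without naive 4 and 5, the 5 nearest the threshold, the 5 largest changes that did not pass, the 10 most abundant, and up to 4 of the most abundant tested members of each of 34 groups. Outside this rule are miR-410-3p and miR-21c, named for their seeds, miR-494-5p, and the other arms of the miRNAs called only without naive 4 and 5. p-values set each change against the spread between these libraries within their groups. Alternatives were other scalings, pseudocounts, filters, tools, a replicate block and each library left out.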

Additional observations from a re-analysis of the deposited data

Results flagged for a closer look

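Among the 5 naive libraries, 10 of the 132 named miRNAs had 1 library far from the other 4. The gap to the nearest library was then more than 0.71 of the whole range on the log2 scale, which chance gives in about 1 group in 20. Naive library 4 was low in 5 of them. It held 3338 CPM of the muscle miRNA miR-1a-3p, where the others held 9395 to 13406, 525 CPM of miR-1b-5p (others 1359 to 1785), 6432 CPM of miR-29a-3p (others 23472 to 37017), 848 CPM of the Dlk1-Dio3 member miR-434-3p (others 2214 to 2444) and 22.6 CPM of miR-7a-1-3p (others 49.3 to 65.8). Naive library 5 was high for miR-344d-3p, at 60.9 CPM (others 25.5 to 31.4), and for the leukocyte miRNA miR-142-5p, at 429 CPM (others 302 to 334), and low for miR-135b-5p, at 26.9 CPM (others 63.6 to 89.7). Naive library 1 held 1250.1 CPM of the muscle miRNA miR-133a-3p (others 1798 to 2046). Naive library 3 held 1.77 CPM of miR-344e-3p, where the others held 0 to 0.0810 CPM.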

How the results depend on the processing

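With all 8 libraries, 3 miRNAs were called by limma. The number was 6 with a pseudocount of 5, 55 with array weights (33 higher and 22 lower), 21 with the spread estimated over all 14 libraries (16 and 5), 36 with DESeq2 (10 and 26) and 0 with edgeR, also with injured library 1 left out. Without naive libraries 4 and 5 it was 14. Leaving out 1 library gave 0 to 8, with 0 for each injured library, 5 without naive 1, 5 without naive 3 and 8 without naive 5. Without naive libraries 4 and 5, the 14 calls became 9 with no filter, 45 with array weights (30 and 15), 29 over all 14 libraries (23 and 6), 49 with DESeq2 (25 and 24), and 5 with edgeR when injured library 1 was left out, an alternative added after seeing the data. edgeR on the 6 libraries called 13. Leaving out 1 library gave 4 to 25, with 5, 6 and 4 without injured 1, 2 and 3, 7 without naive 2 and 25 without naive 3. Fewer samples entered each of these fits. A replicate block was fitted only without naive libraries 4 and 5, and there it gave 30 calls (22 and 8) in place of 14. In their deviations from the group means, same-numbered libraries correlated at 0.138, −0.202 and 0.328, and differently numbered ones at −0.426 to 0.252. These ranges overlap and rest on few libraries, so they cannot decide whether the numbers pair the libraries. The difference between strains was called for 1 miRNA with edgeR and 3 with DESeq2, for 0 with every other alternative, and for 0 with the replicate block (71 at an unadjusted p under 0.05).

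miR-431-5p had limma, edgeR or DESeq2 adjusted p-values of 4.38e-05 to 0.212 over 24 alternatives and missed the threshold in 5, and miR-6540-5p had 0.000356 to 0.274 and missed it in 6. Without naive libraries 4 and 5 both passed in 21 of 21. No called miRNA changed sign. Several group medians moved without naive libraries 4 and 5. Those for myeloid, lymphocyte and miR-7 miRNAs went to 0.71, 0.30 and 0.18, and the lymphocyte median to −0.22 without naive 4 alone. The hepatocyte, motor neuron and miR-367 medians went from −1.58, −1.46 and −1.38 to 0.51, 0.50 and 1.08. The epithelial median went from −0.98 to −0.02 and the inflammation median from −0.29 to 0.35. The cause was not tested. Depth limits miRNAs below about 1 CPM.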

Other observations

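Some miRNAs that were high in naive library 4 were also highest in injured library 1 among the injured libraries. In naive library 4, 12 of the 607 miRNAs lay more than 3 above the mean of naive libraries 1 to 3 on the log2 scale, and injured library 1 was the highest injured library for 9 of the 12, beside 253 of all 607 (41.7%). The 12 were picked for naive library 4 after their values were seen, and no test was made. For each, the excess of injured library 1 over the mean of the other 2 injured libraries was expressed as a percent of the excess of naive library 4 over the mean of naive libraries 1 to 3. The median was 3.00% and the range −0.72% to 4.94%. The motor neuron miRNA miR-218-5p had 4.66%, miR-367-3p 4.94%, miR-155-3p 4.48%, miR-494-5p 4.09%, the liver miRNA miR-122-5p 3.95%, and the epithelial miRNAs miR-141-3p, miR-200a-3p and miR-200b-3p 3.27%, 2.73% and 2.69%. miR-222-3p had 1.90% and miR-429-3p 1.33%, while miR-1249-3p and miR-6367 lay at or below 0%.

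Naive library 5 had larger shares of the same excess, 29.9% for miR-218-5p, 28.2% for miR-367-3p, 18.7% for miR-200a-3p and 9.93% for miR-155-3p. None of the 14 called miRNAs is among the 12.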
